A study of Mus musculus with 70 samples.

Results

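The signalling lymphocytic activation molecule (SLAM) family is described here through 7 genes in regulatory T cells (Tregs) sorted from 6 mouse tissues. These were the receptor genes Slamf1, Slamf6, Slamf7, Cd84 and Ly9, the ligand gene Cd48, and Sh2d1a, which encodes the SLAM-associated protein SAP. They were a named list among the 53465 genes of the count table, chosen by a measured value, the large ST2 difference of Slamf6 in visceral adipose tissue (VAT). All 7 were among the 13173 protein-coding genes tested. Slamf6 values that overlap with that choice, which are its ST2 differences, its tissue levels in CD44hi cells and its VAT interaction, are therefore given as a description without a test. Its comparison of ST2- CD44hi with ST2- CD44lo cells shares the CD44hi libraries with that choice, and its test is given with that limit.

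Tregs were sorted from 5 male mice aged 16.6 to 18.6 weeks that carried the allele Foxp3tm4(YFP/icre)Ayr on a B6.129(Cg) background. In them the Foxp3 locus drives YFP and Cre recombinase, all groups carried the allele, and no floxed gene or treatment was labelled. The organs were skin of the back, colon, abdominal VAT, lungs, spleen and blood. Cells that were ST2+ CD44hi or ST2- CD44hi were sorted from all 6 tissues, and ST2- CD44lo cells from spleen and lungs, which gave 14 groups. ST2 is the receptor for IL-33, and high CD44 marks Tregs that have met antigen, whereas CD44lo cells are the recirculating, resting kind. Each mouse gave 1 library to each group, 220 cells were sorted for all but 7 of the kept libraries (55 for the smallest), and 67 of 70 libraries exceeded 1000000 counts and were used. The 3 left out were blood ST2+ of mouse 1 and 2 of colon ST2+, so those groups had 4 and 3 libraries and the other 12 had 5. The kept libraries held 1304560 to 2759926 counts, and Foxp3 lay between 105 and 414 CPM (counts scaled to 1000000 per library) in every one.

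SLAM receptors are immunoglobulin-like proteins on the surface of blood cells. Most of them bind the same receptor on a neighbouring cell, so they act in contacts between lymphocytes. Their tails carry tyrosine motifs that recruit SAP, an adaptor made of little more than an SH2 domain, which brings in the kinase Fyn, and without SAP the tails can engage inhibitory phosphatases. In CD4 T cells the pathway is best known for holding T and B cells together in germinal centres.

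Of the 7 genes, 6 lay side by side on chromosome 1 within 365 kb (GRCm38). Their order was Ly9, Slamf7, Cd48, Slamf1, Cd84 and Slamf6, between positions 171588624 and 171953170, and Sh2d1a lay on chromosome X at chrX:42502453-42529330 on the plus strand. Levels below are CPM after scaling of library sizes, and levels of different genes are compared only per kilobase of exon. On that scale Cd48 was the most abundant, with a mean of 288 CPM per kb over the 14 group means. Slamf1 averaged 59.4 CPM per kb, Slamf6 44.5, Cd84 44.0, Ly9 32.6 and Sh2d1a 24.0. Slamf7 was far below the others at 6.28 CPM per kb and had no count in 14 of the 67 libraries.

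**Figure D1:**
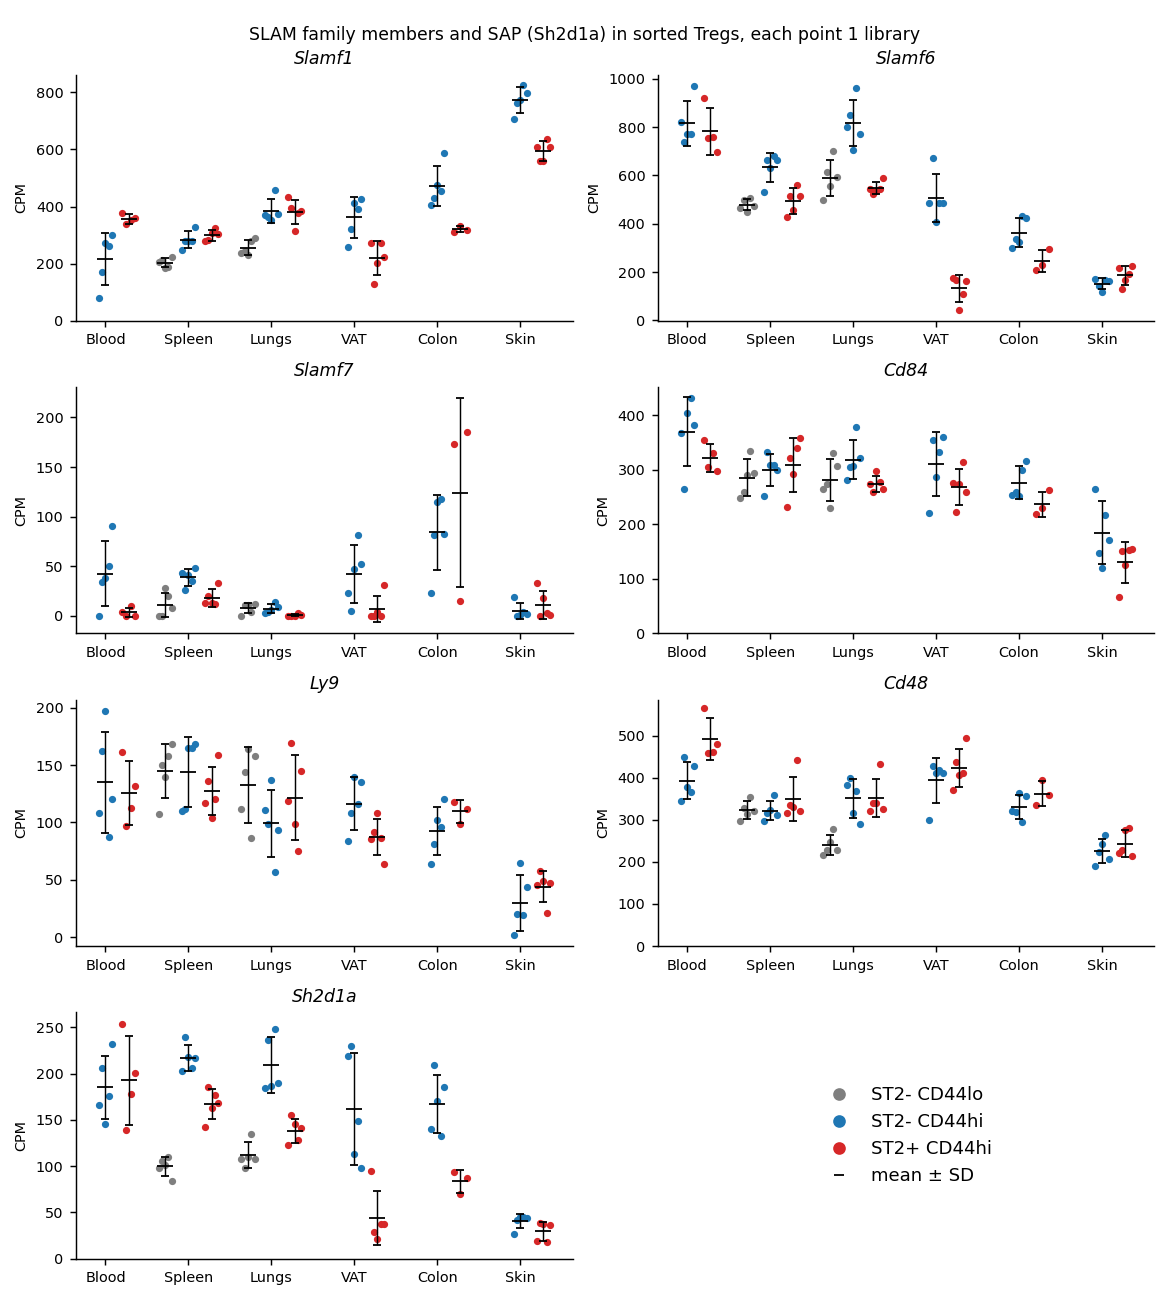
Scaled level (CPM, linear axis from 0) of each gene in every library, by tissue and population, with the mean and SD of each group. Slamf6 has a mean of 132 CPM in VAT ST2+ and 507 CPM in VAT ST2- cells, Sh2d1a one of 44.2 and 162 CPM in the same groups, and Slamf1 is highest in skin.

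Slamf6 (also called Ly108, a receptor that binds itself) had its highest means in ST2- CD44hi cells of lungs and blood and its lowest in VAT ST2+ cells. The gene spans chr1:171917515-171953170 on the plus strand. Its promoter is shown because its ST2 difference in VAT was the value by which the list was chosen. Slamf1 (SLAM or CD150, which also binds itself) lies at chr1:171767127-171801184 on the same strand and moved differently, so both promoters are printed for comparison. Both are RefSeq windows of 300 bases, from 250 before to 50 after the RefSeq start on GRCm38.p6, at chr1:171917212-171917511 and chr1:171766882-171767181. The gene spans given come from the GENCODE M21 annotation, and the Slamf6 window ends before the start of the gene in that annotation. Capitals mark matches, on either strand, to 4 core motifs of factors used in T cells. The letters searched were CTTTGA for TCF/LEF factors, AGATAA for factors of the GATA family, TGTGGT for RUNX factors and AGGAAG for ETS factors.
Slamf6 promoter: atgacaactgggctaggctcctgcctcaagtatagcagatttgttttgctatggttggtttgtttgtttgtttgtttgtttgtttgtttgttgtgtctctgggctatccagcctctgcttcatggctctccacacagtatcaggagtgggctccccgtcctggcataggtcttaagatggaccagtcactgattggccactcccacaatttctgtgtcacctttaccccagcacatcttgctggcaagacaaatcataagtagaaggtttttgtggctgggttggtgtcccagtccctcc
Slamf1 promoter: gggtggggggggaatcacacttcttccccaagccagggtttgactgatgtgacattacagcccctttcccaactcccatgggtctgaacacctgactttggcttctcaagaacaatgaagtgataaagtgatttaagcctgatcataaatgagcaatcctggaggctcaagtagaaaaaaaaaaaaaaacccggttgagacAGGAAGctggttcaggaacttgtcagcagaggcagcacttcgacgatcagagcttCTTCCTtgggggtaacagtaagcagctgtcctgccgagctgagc
The Slamf6 window held no match, and the Slamf1 window held 2 ETS matches. Over all 32851 RefSeq promoter windows, 16.0% held the TCF/LEF letters, 11.2% those of the GATA family, 16.8% the RUNX letters and 35.4% the ETS letters. Windows were found for 5 of the 7 genes, and the Slamf7, Cd84 and Cd48 windows each held 1 ETS match. Cd84 and Cd48 also held 1 RUNX match each, and Cd48 held 1 TCF/LEF match. A match describes letters in a window and is no evidence of binding.

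In VAT, Slamf6 was at 485, 671, 409, 484 and 485 CPM in the ST2- CD44hi libraries of mice 1 to 5. In the ST2+ CD44hi libraries of the same mice it was at 177, 166, 45.0, 109 and 165 CPM. The ranges did not overlap, and the fitted difference of ST2+ minus ST2- was -1.94 on the log2 scale (SE 0.17), or 3.83-fold lower. It was lower in 5 of 5 mice, by log2 differences from -3.15 to -1.45 within mice. Slamf6 was also lower in ST2+ cells of lungs in 5 of 5 mice (546 ± 24.5 against 817 ± 95.1 CPM, SD, n = 5), of spleen in 5 of 5 (494 ± 53.4 against 633 ± 59.4 CPM) and of colon in 3 of 3. Those log2 differences were -0.58, -0.36 and -0.56. In blood the groups overlapped (782 ± 96.9 CPM, n = 4, against 815 ± 92.3, n = 5), and in skin 4 of 5 mice had the higher value in ST2+ cells. The difference in VAT minus the mean difference of the other 5 tissues was -1.68 on the log2 scale. The VAT ST2- libraries of mice 1 to 5 were made from 220, 93, 192, 118 and 135 cells, and each VAT ST2+ library from 220; the part of cell number in the values was not tested. Since these contrasts chose the gene, they have no test here.

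Across the 14 groups the mean level of Slamf6 spanned 6.19-fold. Lungs ST2- (817 CPM), blood ST2- (815 CPM) and blood ST2+ (782 CPM) formed the top with overlapping ranges. Spleen, lung and VAT groups other than VAT ST2+ followed, from 633 down to 479 CPM, each overlapping the next. Colon ST2- and ST2+ averaged 362 and 246 CPM, and the bottom was skin ST2+ (186 CPM), skin ST2- (152 CPM) and VAT ST2+ (132 CPM), which overlapped one another. VAT thus held both a mid-range group and the lowest one, whereas both skin groups were low. In bulk RNA, fewer cells with the transcript and less transcript per cell cannot be told apart, for Slamf6 and for all genes below.

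Sh2d1a, the SAP gene, was not the gene named in the choice and was tested in the VAT contrast. That contrast stood out through Slamf6, which Sh2d1a followed closely over the groups, and members were chosen with earlier results known. The tests of the members in VAT are therefore not independent of the choice. Sh2d1a was lower in VAT ST2+ cells by 1.86 on the log2 scale. The libraries of mice 1 to 5 held 219, 230, 113, 149 and 98.4 CPM in ST2- and 95.2, 29.2, 21.1, 37.7 and 37.7 CPM in ST2+ cells. Every ST2+ library lay below every ST2- library, a separation that 3.34% of all genes showed in VAT, and the ST2+ library of mouse 1 was the highest of its group. The means were 44.2 ± 29.3 and 162 ± 60.2 CPM (SD, n = 5 each), and the log2 difference was -1.86 (SE 0.23, edgeR quasi-likelihood test with Benjamini-Hochberg adjustment, adjusted p = 9.09e-08). A gene is called here when its fold change is at least 1.5 and its adjusted p at most 0.05. Of the 6 members tested in VAT, 2 were called lower (Sh2d1a and Slamf1) and 0 higher, while 3.12% of all 13173 genes were called in either direction and 1.85% were called lower. The median log2 difference was -0.56 for the 6 members and -0.01 for all genes tested.

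The lower level of Sh2d1a in VAT ST2+ cells exceeded its differences elsewhere. The log2 difference in VAT minus the mean of the other 5 tissues was -1.39 (SE 0.25, edgeR adjusted p = 0.000968). For this interaction 0.979% of genes were called, and 2 of 6 members were called, both lower (0.63% of all genes). With voom and quality weights the adjusted p of Sh2d1a was 0.0521, and without mouse 2 the interaction was -1.08 with an edgeR adjusted p of 0.086. Sh2d1a was nevertheless at the lower value in ST2+ cells of 23 of 23 same-mouse pairs of spleen, lungs, VAT, colon and skin, and in 2 of 4 pairs of blood. Its means in ST2+ and ST2- cells were 167 and 216 CPM in spleen, 139 and 209 CPM in lungs, 83.9 and 167 CPM in colon, and 29.8 and 40.7 CPM in skin. None of these passed edgeR's test (adjusted p of 1.0, 0.271, 0.19 and 0.673). In spleen, lungs and colon the ranges did not overlap, which held for 2.43%, 3.65% and 5.68% of all genes. In the mean of the 6 tissues, a contrast added after the values were seen, Sh2d1a was lower by 0.70 on the log2 scale (SE 0.10, edgeR adjusted p = 2.03e-07). There 2 of 6 members were called, both lower, against 4.21% of all genes in either direction and 1.83% lower.

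**Figure D2:**
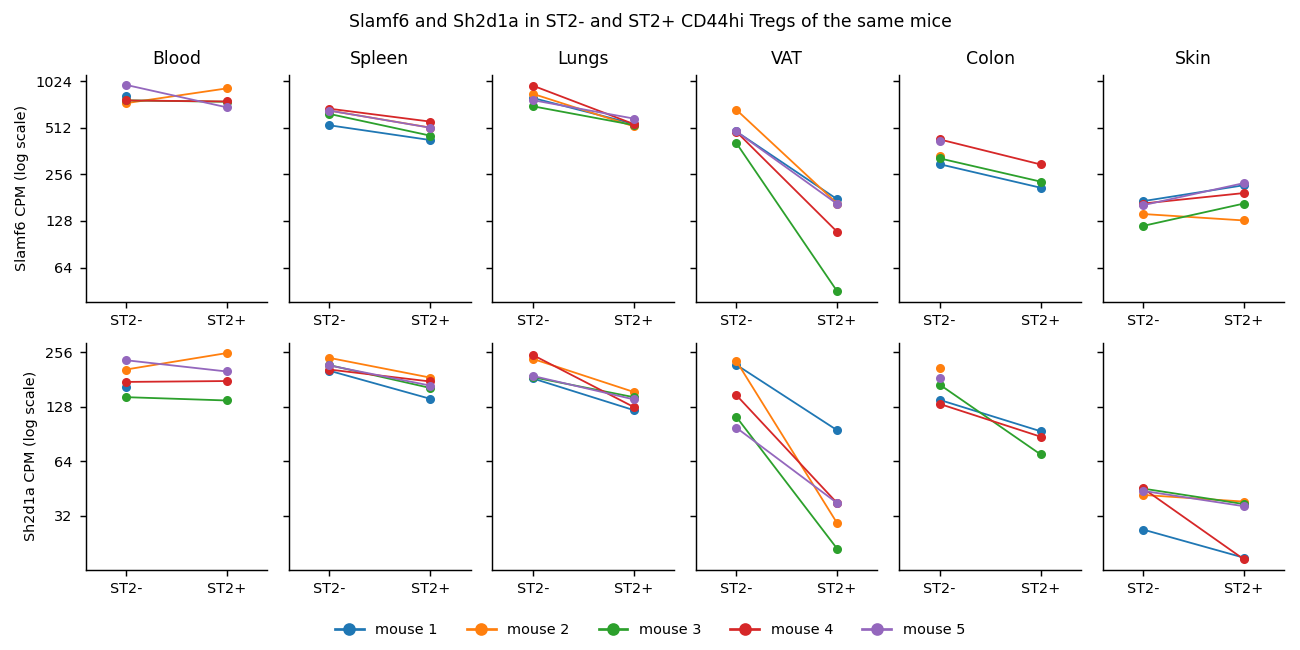
Scaled level (CPM, log axis) of Slamf6 (top) and Sh2d1a (bottom) in ST2- and ST2+ CD44hi cells, with lines joining the 2 libraries of 1 mouse. All 5 lines fall in VAT for both genes, while the blood lines cross for Slamf6 and Sh2d1a; mice with 1 missing library have a single point.

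Of the receptors that were tested, Slamf1 was the only one called between ST2+ and ST2- cells within a tissue, and it was called in opposite directions in blood and VAT. In blood it was at 80.3, 171, 273, 261 and 302 CPM in the ST2- libraries of mice 1 to 5, and at 379, 339, 352 and 359 CPM in the ST2+ libraries of mice 2 to 5. All ST2+ values exceeded all ST2- values, as 5.14% of all genes were separated in blood, and the ST2- values were the more scattered ones. The log2 difference was 0.72 (SE 0.18, edgeR adjusted p = 0.0081), higher in 4 of 4 mice. This made 1 of 6 members higher and 0 lower in blood, where 4.04% of genes were called and 2.25% were called higher. The call was lost under 4 of 12 alternatives. Without mouse 1 the difference was 0.51 (edgeR adjusted p = 0.0268, under 1.5-fold), and without mouse 2, which removes its libraries of both groups, it was 0.61 (edgeR adjusted p = 0.0973). With all 70 libraries it was 0.56 (edgeR adjusted p = 0.0866), and voom with quality weights gave 0.57 (adjusted p = 0.0205, under 1.5-fold). Cd44, the gene of the sorting marker, was at 141 and 41.9 CPM in the ST2- libraries of mice 1 and 2, at 155 to 202 CPM in the others, and at 245 to 293 CPM in blood ST2+ cells. The blood ST2+ libraries of mice 2 and 3 were made from 202 and 55 cells and the ST2- library of mouse 1 from 166. The other blood libraries used were made from 220 cells each. Whether the purity of that gate or the cell number took part in the Slamf1 difference was not tested.

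In VAT, Slamf1 was at 258, 322, 413, 393 and 425 CPM in ST2- cells of mice 1 to 5 and at 272, 128, 204, 271 and 222 CPM in ST2+ cells. The ranges overlapped through mouse 1, whose 2 libraries were nearly equal. Slamf1 was lower in ST2+ cells by 0.72 on the log2 scale (SE 0.17, edgeR adjusted p = 0.00475) and in 4 of 5 mice. Without mouse 2, 3 or 5 the edgeR adjusted p was 0.0942, 0.0887 or 0.0567, at log2 differences of -0.60, -0.64 and -0.67. The VAT difference minus the mean of the other tissues was -0.69 (SE 0.18, edgeR adjusted p = 0.0401), and this lost its call under 7 of 12 alternatives, with adjusted p-values over the alternatives from 0.00169 to 0.387. Slamf1 was also lower in ST2+ cells in 5 of 5 mice in skin (594 ± 33.9 against 772 ± 45.0 CPM) and 3 of 3 in colon (320 ± 10 against 471 ± 71.0 CPM). The ranges did not overlap in either tissue, which held for 1.42% of all genes in skin and 5.68% in colon. Neither passed edgeR's test (adjusted p = 0.474 and 0.594).

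Slamf7 (CRACC, a receptor that signals through the adaptor EAT-2 rather than SAP) had the most uneven values. Over all 6 tissues it was lower in ST2+ cells in 22 of 27 same-mouse pairs and higher in 4, and it was called in no single tissue. The pairs of blood, spleen, lungs and VAT were lower in 19 of 19, whereas colon had 2 higher and 1 lower and skin 2 higher and 2 lower of 5. In spleen, where all libraries had counts, it was at 38.8 ± 8.42 CPM in ST2- and 18.2 ± 9.14 CPM in ST2+ cells. Its mean went from 42.6 ± 32.5 CPM (n = 5) to 3.35 ± 4.57 CPM (n = 4) in blood, from 41.8 ± 29.2 to 6.87 ± 13.4 CPM in VAT and from 7.20 ± 4.60 to 0.62 ± 1.16 CPM in lungs. In VAT ST2+ cells 3 of 5 libraries held no count, and in lungs ST2+ cells 3 of 5 held none. The edgeR adjusted p-values were 0.0965 in blood, 1.0 in spleen, 0.313 in lungs and 0.194 in VAT, and in blood it was 0.0348 without mouse 1, whose ST2- library held no count. In the mean of the 6 tissues Slamf7 was lower by 1.58 on the log2 scale (SE 0.50, edgeR adjusted p = 0.0348), and this call was lost without mouse 2 (adjusted p = 0.0584), 3 (0.223) or 4 (0.0753).

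Slamf7 was highest in colon, with 23.3, 81.7, 115, 118 and 82.7 CPM in ST2- cells and 173, 14.7 and 185 CPM in ST2+ cells of mice 1, 3 and 4. The median summed level of 4 plasma cell markers was also highest in the colon groups, at 1560 to 2264 CPM in ST2- cells and at 2024, 534 and 2562 CPM in those ST2+ libraries, in the same order. In VAT ST2+ cells the only library with more than 3.68 CPM of Slamf7 was that of mouse 5 (30.7 CPM), and its plasma cell markers summed to 1441 CPM against 236 to 328 CPM in the other 4. In colon ST2- cells mouse 1 had the lowest value of both (23.3 CPM of Slamf7 and 1560 CPM of the markers). Mouse 4 had the highest Slamf7 of that group (118 CPM) beside 1712 CPM of the markers. Some libraries of VAT ST2- and blood ST2- cells did not pair the 2 values in this way. In VAT ST2- cells mouse 3 had 1272 CPM of plasma cell markers and 47.0 CPM of Slamf7, while mice 4 and 5 had 344 and 282 CPM of the markers and 81.6 and 52.1 CPM of Slamf7. In blood ST2- cells of mouse 5, Slamf7 was at 90.1 CPM beside 188 CPM of the markers. All 4 markers had counts in colon and VAT, Slamf7 is known to be expressed by plasma cells, and their part in these values was not tested. Macrophage and monocyte markers summed to 1292 to 1481 CPM in colon ST2+ libraries against 31.8 to 222 CPM in colon ST2-, with all 8 markers counted. In VAT they summed to 80.4 to 235 CPM in ST2+ and 11.7 to 118 CPM in ST2- cells, and their part in the ST2 differences of the members was not tested.

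Cd84 and Ly9 (both receptors that bind themselves) were called in no ST2 comparison. Cd84 stayed between 218 and 431 CPM in every library outside skin, and the median library over all groups held 281 CPM. In the mean of the 6 tissues its log2 difference was -0.22 (SE 0.07, edgeR adjusted p = 0.0282), below the fold minimum. Ly9 differed by -0.41 in VAT and by 0.58 in skin on the log2 scale, with edgeR adjusted p-values of 0.534 and 0.691. Its 95% interval for the mean of the tissues ran from -0.19 to 0.33.

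Cd48, the GPI-anchored ligand of CD244 and CD2, was the steadiest member, with a 2.19-fold span over the 14 group means. In blood it was at 345 to 449 CPM in ST2- and 458 to 566 CPM in ST2+ cells, with a log2 difference of 0.32 (SE 0.11, edgeR adjusted p = 0.0823). Cd48 was higher in ST2+ cells of 23 of 27 same-mouse pairs, including all pairs of blood, spleen, colon and skin. The mean log2 difference over 6 tissues was small at 0.13 (SE 0.04, edgeR adjusted p = 0.0599). Spleen, lungs, colon and skin each had 0 of 6 members called between ST2+ and ST2- cells, where 0.319%, 0.782%, 0.0683% and 0.213% of all genes were called. At an unadjusted p under 0.05, 680, 1321, 664 and 1114 genes passed in those tissues. Voom with quality weights called 1 member there, Sh2d1a in colon (log2 difference -0.96, adjusted p = 0.0106).

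**Figure D3:**
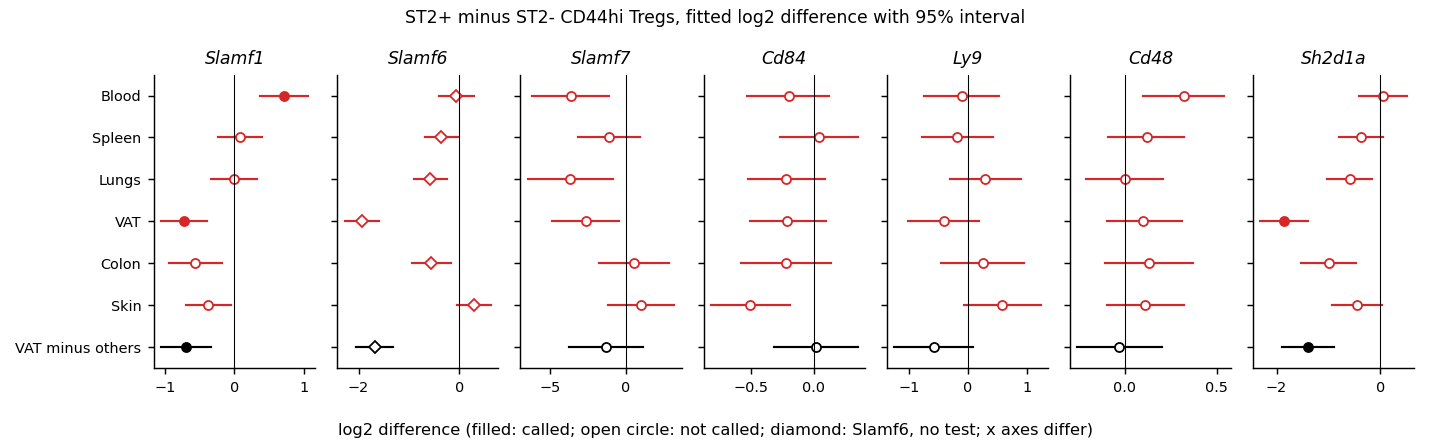
Fitted log2 difference of ST2+ minus ST2- CD44hi cells in each tissue, and of VAT minus the mean of the other tissues (black), with 95% intervals; x axes differ between genes. Filled points are called, which are Slamf1 in blood and VAT, Sh2d1a in VAT and both VAT interactions, and diamonds are Slamf6 values without a test.

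The comparison of ST2- CD44hi with ST2- CD44lo cells asked how the family differs between activated and resting Tregs. The CD44lo libraries played no part in choosing Slamf6, whereas the ST2- CD44hi libraries of spleen and lungs entered its VAT interaction. All 7 members were tested, and for Slamf6 the test shares its CD44hi side with that choice. Sh2d1a was higher in CD44hi cells of both organs. In spleen it was at 203, 218, 206 and 217 CPM in CD44hi cells of mice 1, 3, 4 and 5, with mouse 2 above them, and at 98.2, 106, 101, 110 and 83.5 CPM in CD44lo cells of mice 1 to 5. The lowest CD44hi library lay far above the highest CD44lo one, and 9.49% of all genes had such separate ranges in spleen, in either direction. The log2 difference was 1.12 (SE 0.22, edgeR adjusted p = 0.000319). In lungs the means were 209 ± 30.6 and 112 ± 14 CPM and the ranges were again apart, as for 7.03% of all genes. The log2 difference there was 0.90 (SE 0.22, edgeR adjusted p = 0.00507). The lung call was lost without mouse 2 (log2 difference 0.79, edgeR adjusted p = 0.0645). In each organ 1 of 7 members was called, higher, against 5.03% of genes called in spleen (4.44% higher) and 5.53% in lungs (4.84% higher).

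Slamf6 was at 633 ± 59.4 CPM in CD44hi and 479 ± 23.6 CPM in CD44lo cells of spleen, and at 817 ± 95.1 and 591 ± 74.5 CPM in lungs. The CD44hi libraries all exceeded the CD44lo ones in both organs, which in either direction held for 9.49% of genes in spleen and 7.03% in lungs. The log2 differences of 0.40 and 0.47 did not pass edgeR's test (adjusted p = 0.176 and 0.0875). The CD44hi values of Slamf6 are among those that entered its choice. Slamf1 was likewise higher in every CD44hi library. In lungs its log2 difference was 0.58 (SE 0.17, edgeR adjusted p = 0.0195), just under the 1.5-fold minimum, and with the mouse as a replicate block it was 0.59 (adjusted p = 0.0103) and called, which made 2 members higher. In spleen it was 0.48 (edgeR adjusted p = 0.082). Cd48 was higher in CD44hi cells of lungs by 0.55 (SE 0.11, edgeR adjusted p = 0.000189), also under the fold minimum and over it without mouse 3 (0.60) or mouse 4 (0.59). In spleen its log2 difference was -0.01. Slamf7 had a log2 difference of 1.81 in spleen (edgeR adjusted p = 0.477), which voom with quality weights put at 3.37 and called (adjusted p = 0.0185). The CD44lo cells themselves differed in Cd48, at 240 ± 23.3 CPM in lungs and 323 ± 20.7 CPM in spleen (log2 difference -0.43, edgeR adjusted p = 0.00837). No member was called between these CD44lo groups, where 3.16% of genes were, and 1945 genes had an unadjusted p under 0.05. None was called there by DESeq2 or voom either.

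To describe tissues, the mean of ST2+ and ST2- CD44hi cells of each tissue was compared with that of spleen. The 5 contrasts share the spleen libraries, so their values are not independent. Most calls were in skin. Slamf1 was higher there by 1.22 on the log2 scale (SE 0.12, edgeR adjusted p = 2.54e-13), at 558 to 825 CPM in the 10 skin libraries (median 670) against 247 to 330 CPM in the 10 spleen libraries (median 281). Sh2d1a was lower by 2.45 (SE 0.17, edgeR adjusted p = 4.82e-19), at 18.4 to 45.4 CPM (median 37.8) against 142 CPM or more in spleen (median 194). The ranges of skin and spleen did not overlap for either gene, which held for 14.4% of all genes. Ly9 was lower by 1.89 on the log2 scale (37.1 ± 20.1 against 136 ± 26.1 CPM, edgeR adjusted p = 3.43e-10). Cd84 was lower by 0.97 (157 ± 54.1 against 304 ± 38.9 CPM, edgeR adjusted p = 9.65e-11). Cd48 was lower by 0.52, below the fold minimum (edgeR adjusted p = 5.48e-08). Thus 1 of 6 members was called higher and 3 lower in skin, where 41.1% of all genes were called, 21.0% higher and 20.2% lower. The share of members called is set against a large background there. Markers of other cells also differed between these organs, and their part in the skin values was not tested. Dendritic cell markers (5) summed to 95.8 to 258 CPM in skin and 10.9 to 44.3 CPM in spleen libraries, with Flt3, Itgax and Clec9a at 0 in spleen and Clec9a at 0 in skin ST2+ cells. Mast cell markers (4) summed to 22.6 to 587 CPM in skin and 0.0 to 8.60 CPM in spleen, with Mcpt4 and Tpsb2 at 0 in spleen and in skin ST2- cells, the latter also without Cpa3. Slamf7 differed by -1.76 on the log2 scale (edgeR adjusted p = 0.0544), and it was called lower without mouse 1 (-3.15, adjusted p = 0.00144) and by voom. Slamf6 was also low in skin, at 119 to 225 CPM (median 166) against 427 to 681 CPM in spleen (median 547), without a test.

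Sh2d1a was lower than in spleen in VAT by 1.16 on the log2 scale (SE 0.16, edgeR adjusted p = 4.94e-08) and in colon by 0.68 (SE 0.17, edgeR adjusted p = 0.00196). It was the 1 member called in each, against 15.9% of genes in VAT (7.09% lower) and 19.5% in colon (4.73% lower). In VAT this mean joins an ST2- group at 162 CPM with an ST2+ group at 44.2 CPM. In lungs Slamf7 was lower by 3.69 (SE 0.92, edgeR adjusted p = 0.00282), at 0.0 to 14.1 CPM (median 2.63) against 11.9 to 48.5 CPM (median 29.9). It was the 1 of 6 members called in lungs, where 10.2% of genes were called (4.02% lower). In blood 0 of 6 members were called, against 7.79% of genes, 3325 genes had an unadjusted p under 0.05, and neither DESeq2 nor voom called a member. Cd48 was higher in blood by 0.39 (SE 0.08, edgeR adjusted p = 0.000204) and in VAT by 0.28 (SE 0.07, edgeR adjusted p = 0.00357), both under 1.5-fold. Slamf1 was higher by 0.39 in lungs (edgeR adjusted p = 0.0153) and by 0.42 in colon (0.00986), again under the fold minimum. The log2 difference of Slamf6 from spleen, without a test, was 0.51 for blood, 0.26 for lungs, -1.11 for VAT, -0.91 for colon and -1.73 for skin.

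**Figure D4:**
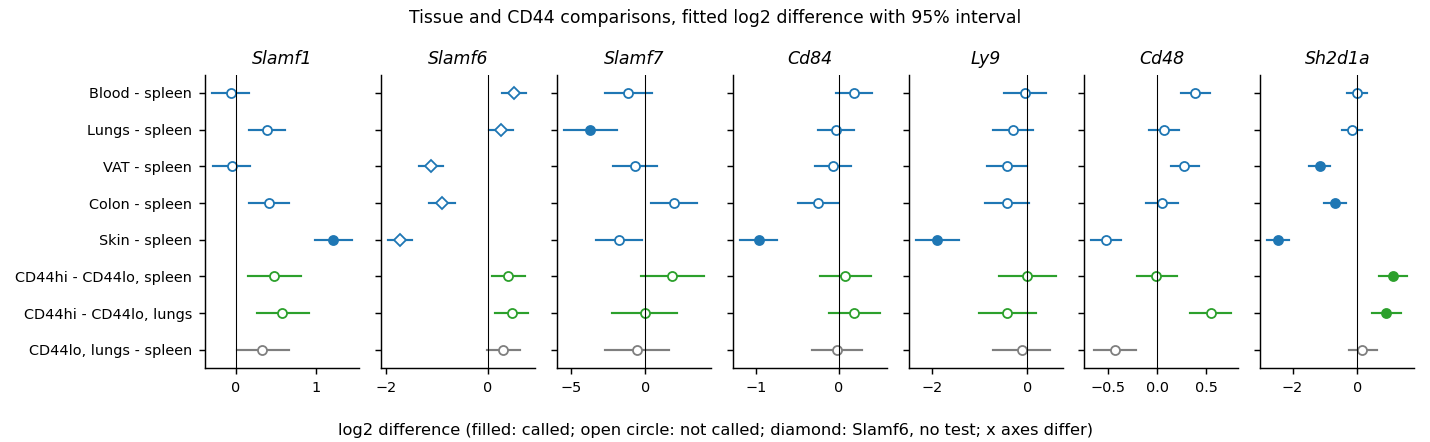
Fitted log2 differences with 95% intervals for each tissue minus spleen in CD44hi cells (blue), CD44hi minus CD44lo in spleen and lungs (green) and lungs minus spleen in CD44lo cells (grey); x axes differ between genes. Skin minus spleen is positive for Slamf1 (1.22) and negative for Cd84, Ly9 and Sh2d1a, and Sh2d1a is higher in CD44hi cells of both organs.

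Order within each gene was rarely sharp. Of the 13 neighbouring pairs of groups in the order of means, ranges overlapped in 13 for Slamf7, Cd84 and Sh2d1a, in 12 for Ly9 and Cd48, in 11 for Slamf1 and in 10 for Slamf6. Sh2d1a was highest in spleen ST2- cells (216 ± 14.3 CPM) and lowest in skin ST2+ cells (29.8 ± 10.3 CPM), a 7.25-fold span. Slamf1 ran from 772 ± 45.0 CPM in skin ST2- to 203 ± 16.2 CPM in spleen CD44lo cells, a 3.80-fold span. Cd84 (2.85-fold) and Ly9 (4.78-fold) had both skin groups at the bottom.

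Over the 14 group means of log2 CPM, Slamf6 and Sh2d1a followed each other most closely of all member pairs (Pearson r = 0.908, n = 14 groups, a description, since the groups share mice and library preparation). Cd84 correlated with Sh2d1a at 0.842 and with Slamf6 at 0.730. Slamf1 was the exception, with negative values against all other members, from -0.800 with Ly9 to -0.102 with Slamf7. Among 9207 genes with a mean of at least 10 CPM, the genes most like Slamf6 were Vsir (0.947), Aff3 (0.941) and Rab11fip2 (0.936), and those most like Sh2d1a were Rab11fip2 (0.954), Tbc1d4 (0.936) and Bloc1s6 (0.931). For Slamf1 they were Tpst2 (0.945), Ric1 (0.926) and Samd11 (0.923), and for Cd84 Zfp182 (0.974), C2cd5 (0.968) and Phf11b (0.963). For Ly9 they were Nudt16 (0.966), Tsnax (0.964) and Atic (0.960), for Cd48 Fis1 (0.929), B3gat3 (0.923) and Ndufa8 (0.920), and for Slamf7 4933427D14Rik (0.83), Renbp (0.83) and Ube2w (0.82).

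A list of 11 quiescence and recirculation genes was set beside the members. Slamf6 correlated with them at a median r of 0.765 over the 14 groups, with Tcf7 (the transcription factor TCF-1) at 0.891, and its median over the 9207 genes was 0.053. These group means include the levels by which Slamf6 was chosen, so its correlations, also those with other members, are a description only. Il7r was the exception at -0.320. The medians were 0.666 for Sh2d1a, 0.622 for Ly9, 0.547 for Cd84, 0.232 for Cd48, 0.007 for Slamf7 and -0.474 for Slamf1. In VAT ST2+ cells 6 of the 11 were called lower and 1 higher, against 3.12% of all genes in either direction (1.85% lower). Among them Tcf7 was at 68.2 ± 43.8 against 276 ± 111 CPM (log2 difference -2.0, edgeR adjusted p = 5.25e-05), and Ccr7, the receptor for entry into lymph nodes, at 62.7 ± 57.3 against 312 ± 173 CPM. Il7r was the one called higher, at 859 ± 60.5 against 460 ± 159 CPM. In blood ST2+ cells 5 were called lower and 1 higher, in lungs 1 lower, in spleen 1 higher, and in colon and skin 0, against 4.04%, 0.782%, 0.319%, 0.0683% and 0.213% of all genes in these 5 tissues. Slamf6 itself had a log2 difference of -0.06 in blood, beside 5 lower list members there. Against spleen, 8 were lower and 1 higher in skin (41.1% of all genes called), 8 lower and 0 higher in VAT (15.9%) and 7 lower and 1 higher in colon (19.5%). In blood and in lungs the direction was the other one, with 4 higher and 1 lower in each (7.79% and 10.2%). Klf2, a transcription factor of quiescent T cells, was at 381 ± 47.8 CPM in blood and 291 ± 90.6 CPM in lungs against 145 ± 25.2 CPM in spleen.

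A list of SLAM signalling held 18 genes, which include the kinases Fyn and Lck and the phosphatases Ptpn6, Ptpn11 and Inpp5d. At most 1 of them was called with ST2 in any tissue. Nfkb1, an NF-kB subunit downstream of SAP and Fyn, was the 1 called in VAT, at 520 ± 126 CPM in ST2+ and 283 ± 117 CPM in ST2- cells (log2 difference 0.88, edgeR adjusted p = 0.00135). Grb2, an adaptor, was the 1 called in blood (166 ± 46.9 CPM, n = 4, against 109 ± 17.6 CPM, n = 5, higher by 0.60), and spleen, lungs, colon and skin had 0. Of all genes, 3.12% were called in VAT and 4.04% in blood, so 1 of 18 is near the share in both. In spleen, lungs, colon and skin the shares were 0.319%, 0.782%, 0.0683% and 0.213%. Ptpn11, which encodes SHP-2, was the 1 called in CD44hi against CD44lo cells of spleen (141 ± 16.8 against 75.3 ± 20.1 CPM), and 0 were called in lungs. Of all genes, 5.03% were called in spleen and 5.53% in lungs, so 1 of 18 is near the share in spleen. In skin 5 were higher than in spleen and 4 lower, a share near the 41.1% of all genes called there. Ptpn6, the SHP-1 gene, was at 101 ± 25.8 against 358 ± 35.3 CPM (edgeR adjusted p = 1.14e-16), and Prkcq, the protein kinase C of the T cell synapse, at 154 ± 36.8 against 517 ± 40.0 CPM (2.04e-20). Among the higher ones, Nfkb1 was at 615 ± 131 against 237 ± 33.2 CPM (edgeR adjusted p = 2.19e-13) and Grb2 at 228 ± 25.3 against 103 ± 18.3 CPM (1.83e-15). In VAT 2 were higher than in spleen, Nfkb1 (401 ± 170 against 237 ± 33.2 CPM) and Inpp5d (304 ± 47.1 against 193 ± 44.9 CPM), and 1 was lower, Ptpn6 (210 ± 70.3 against 358 ± 35.3 CPM), where 15.9% of all genes were called. In colon 0 were higher and 2 lower, Prkcq and Dok1 (19.5% of all genes), and in blood and lungs 0 were called (7.79% and 10.2%).

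A list of 14 follicular T cell genes, the setting in which SAP is best known, had calls with CD44 and with tissue. In spleen 10 were higher and 0 lower in CD44hi than in CD44lo cells (5.03% of all genes called, 4.44% higher), and in lungs 6 and 0 (5.53%, 4.84% higher). Maf was at 155 ± 21.2 against 9.89 ± 7.22 CPM in spleen (edgeR adjusted p = 3.56e-13), and Icos, a costimulatory receptor, at 388 ± 44.4 against 125 ± 26.3 CPM. Between tissues, with spleen as the reference, 6 were higher and 5 lower in skin (41.1% of all genes called), 4 and 5 in VAT (15.9%), 4 and 1 in colon (19.5%), 2 and 5 in lungs (10.2%) and 0 and 8 in blood (7.79%). Icos was at 1824 ± 280.0 CPM in skin (453 ± 86.2 CPM in the spleen), and Pdcd1, the gene of PD-1, at 64.7 ± 57.8 CPM in blood against 455 ± 73.8 CPM in spleen. Cxcr5, the receptor for entry into follicles, was listed at 0 in all 5 VAT ST2+ libraries and averaged 40.4 ± 61.7 CPM in VAT ST2- cells, and it was at 34.7 ± 18.5 against 187 ± 13.8 CPM in spleen ST2+ and ST2- cells. Between ST2+ and ST2- cells 3 were higher and 2 lower in blood, 1 was higher and 1 lower in lungs and likewise in VAT, 1 was lower in spleen and 1 in skin, and 0 were called in colon. The shares of all genes called were 4.04% in blood, 0.782% in lungs, 3.12% in VAT, 0.319% in spleen, 0.213% in skin and 0.0683% in colon.

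The other family genes were near 0. Cd244a, Slamf8, Slamf9, Sh2d1b1 and Sh2d1b2 had 6 to 302 counts in total over the 67 libraries, and 3 of the 5 passed the filter. The highest library of Cd244a (23.5 CPM), Slamf8 (14.3 CPM), Slamf9 (38.8 CPM) and Sh2d1b1 (9.17 CPM) was in colon ST2+ cells, where the macrophage markers were highest. Slamf9 was the 1 of 3 called higher than in spleen in VAT and in colon (3.30 ± 5.84 and 10.8 ± 13.7 CPM against 0.248 ± 0.524). Of all genes, 15.9% and 19.5% were called there, and Slamf9 had 242 counts in 15 of the 67 libraries. None of the 3 was called with ST2 in any tissue, where 0.0683% (colon) to 4.04% (blood) of all genes were called. Cd244a, the receptor that Cd48 binds, had counts in 27 of the 67 libraries, whereas Cd48 was at 190 CPM or more in all of them.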

How the data were processed

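Libraries from sorted Tregs used SMART-Seq v4 and NexteraXT kits. Per the labels and the study's methods, the authors aligned reads to GRCm38 with STAR and counted them per gene with HTSeq 0.4.1. The deposited values are raw counts, with no scaling, and the sources used here give neither the strand setting nor the counting mode, so reads of overlapping genes on opposite strands may be shared. Of Sh2d1a exon bases, 26.6% overlap Tenm1 (51 counts in all kept libraries), and of Slamf7, 9.2% overlap Gm37787 (15 counts).

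The CD44lo cells were also gated on a further marker, which is not reported here. Libraries over 1000000 counts were kept (67 of 70, 0 columns left unused). TMM factors came from the whole table. Protein-coding genes (GENCODE M21) that reached 1 CPM in 10% or more of libraries were tested with edgeR 4.0.16 (quasi-likelihood, R 4.3.3), 1 term per group, no mouse term, and Benjamini-Hochberg adjustment over 13173 genes. The main test differs from the study's voom, which was an alternative. Intervals are 1.96 SE. At the median of 2039002 counts, 1 CPM is about 2 reads, and intervals cover the fitted spread only. Log2 CPM used a prior count of 2.

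Alternatives were DESeq2 1.42.0, limma 3.58.1 voom with quality weights, median-of-ratios factors, no gene filter (18536 genes), 1 CPM in 50% of libraries (10400 genes), a mouse block, all 70 libraries, and leaving out each mouse. The mean ST2 difference of the 6 tissues was added after values were seen. Same-numbered libraries come from the same animal; deviations from group means correlated at a mean r of 0.096 in 27 same-mouse pairs and -0.023 in 108 other pairs (7995 genes).

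Members and lists were chosen with earlier results of these data known. Named genes were the 7 members, listed genes with at most 4 of the smallest p per list and comparison, and the 3 genes most like each member. In counts simulated for the VAT comparison over 13173 genes, 10%, 35.9% and 60.6% of genes changed 1.5-, 2- and 4-fold were called, with 0 false calls. For ST2 in blood the shares were 3.28%, 20.4% and 47.1%, with 4 false calls. For CD44hi against CD44lo cells of spleen they were 8.11%, 25.4% and 64.4%, with 3 false calls. Python 3.11.15, pandas 2.3.3, numpy 2.4.6 and matplotlib 3.10.9 were used for summaries and figures.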

Additional observations from a re-analysis of the deposited data

Results flagged for a closer look

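Within groups of 4 or 5 libraries, 9 of 91 gene and group sets held 1 library whose gap from the others passed Dixon's 95% value, and about 1 in 20 would be passed by chance. Mouse 4 had the high value of Slamf1 in lungs ST2- (457 CPM, others 354 to 374), of Cd48 in spleen ST2+ (441, others 316 to 336) and in lungs ST2+ (432, others 321 to 340), and of Slamf7 in lungs ST2+ (2.67, others 0.0 to 0.427). Slamf7 was high in VAT ST2+ of mouse 5 (30.7 CPM, others 0.0 to 3.68) and in skin ST2- of mouse 1 (19.2 CPM, others 0.0 to 4.19). Mouse 1 also had the low value of Cd48 in VAT ST2- (300 CPM, others 410 to 428), the low value of Sh2d1a in skin ST2- (26.9 CPM, others 41.8 to 45.4) and the high value of Sh2d1a in VAT ST2+ (95.2 CPM, others 21.1 to 37.7).

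The ST2 difference in VAT differed from the mean of the other 5 tissues by a test of the interaction itself for Sh2d1a (-1.39) and Slamf1 (-0.69) on the log2 scale. The call was lost under 7 of 12 alternatives for Slamf1 and under 2 of 12 for Sh2d1a. Voom with quality weights called neither.

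The libraries under 1000000 counts, which only the alternative with all 70 libraries used, still held counts of the members above a floor of 3 counts. Blood ST2+ of mouse 1 (66 cells, 488666 counts) held 489 counts of Slamf6, 364 of Cd48, 280 of Cd84, 232 of Sh2d1a, 167 of Ly9 and 79 of Slamf1, and none of Slamf7. Its unscaled level of Slamf1 was 162 CPM, below the 339 to 379 CPM of the 4 kept libraries of that group, which are scaled values. Its unscaled levels of Slamf6 (1001 CPM), Cd48 (745), Cd84 (573), Sh2d1a (475) and Ly9 (342) lay above the scaled values of those libraries. Colon ST2+ of mouse 5 (62333 counts) held 21 counts of Cd48, 14 of Cd84, 13 of Slamf1, 10 of Slamf6 and 10 of Sh2d1a.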

How the results depend on the processing

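Of 300 recomputed log2 differences of members with an adjusted p of at most 0.05, none changed sign, 277 kept their side of the call, 20 lost it and 3 gained it. Voom with quality weights gave 0 members higher in blood, 1 lower in colon, 2 higher in CD44hi than CD44lo cells of spleen, 1 higher in colon than in spleen and 0 with a VAT interaction. It also called Slamf7 lower in skin than in spleen (-3.62, adjusted p = 0.000941). All 70 libraries gave 0 higher in blood and 1 interaction, and no gene filter gave 1 interaction. The mouse as a replicate block gave 2 members higher in CD44hi cells of lungs and changed no other call. Leaving out each mouse gave 0 to 1 members higher and 0 to 1 lower in blood, 1 to 2 lower in VAT, 0 to 2 higher in CD44hi cells of lungs, 0 to 2 interactions and 1 to 2 lower in the mean of the 6 tissues. Skin against spleen had 3 to 4 members lower with mice left out. The Slamf6 difference in colon, -0.56 with a very small spread over 3 pairs, was -0.54 with median-of-ratios factors, -0.52 with the block and -0.64 with all 70 libraries, and -0.65 to -0.51 with mice left out. In VAT it stayed between -2.08 and -1.79 with mice left out. The causes were not tested. Slamf7 had a median count of 23 per library, and the part of depth in its calls was not tested.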
